A study of Mus musculus with 6 samples.

Results

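Pdlim4, Ptpn14, Procr and Serpinb9b are 4 genes of the 35976 symbols counted in RAW264.7, a macrophage-like line of mouse origin. They were chosen by their measured log2 fold changes, as the strongest rises after itaconate outside the classic target genes of NRF2, which directs the response to electrophiles and oxidants. Because that contrast chose them, their own differences are a description without a test. The itaconate group held 3 libraries of RAW264.7 cells exposed to itaconate for 24 h, and the control group held 3 libraries of untreated RAW264.7 cells. Both groups are the same cell line. The labels state neither the dose or chemical form of the itaconate nor a vehicle, and give no batch or date. Whether each library came from its own culture is also unstated, so p-values measure a spread that may be technical. RNA was read from its polyadenylated 3′ end. Library totals lay between 5202626 and 6098934 counts and did not differ detectably between the groups (exact two-sided permutation p = 0.8, smallest possible 0.1). Mitochondrial genes took 5.04% ± 0.375 of counts in itaconate and 4.81% ± 0.444 in control libraries (SD, n = 3 each; exact permutation p = 0.5).

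The macrophage label was checked first. All 14 macrophage markers examined were above the low-count filter in these libraries, with a summed level of 13213 to 13550 CPM in itaconate libraries and 15422 to 16964 CPM in control libraries. CPM are counts scaled to a common library size, here after TMM, a method that equalises libraries by their bulk of genes. Among them the M-CSF receptor gene Csf1r had a log2 fold change of -1.01 ± 0.07 (SE; adjusted p = 4.53e-16, edgeR with Benjamini-Hochberg adjustment), 6 others were also called lower, 1 was called higher and 6 were not called, where 11.2% of all tested genes were called lower and 10.7% higher. The part of these marker differences in other results was not tested. Procr is best known from endothelium and blood stem cells. The endothelial genes Pecam1, Cdh5, Tek, Tie1, Emcn, Erg, Cldn5 and Robo4 had 0 counts in every library. Vwf had 71 counts in itaconate and 71 in control libraries, Flt1 24 and 47, Kdr 19 and 4, and Esam 0 and 6. Vwf and Flt1 were tested and not called. The 12 endothelial markers summed to 3.15 to 11.4 CPM in itaconate libraries and 6.53 to 8.77 CPM in control libraries. The 9 stem and progenitor markers, Kit, Ly6a and Slamf1 among them at 0, summed to at most 0.187 CPM in itaconate and 0.837 CPM in control libraries. Fibroblast markers summed to 0.753 to 4.37 CPM in itaconate libraries and 2.51 to 4.48 CPM in control libraries, T and NK cell markers to 2.27 to 7.47 CPM in itaconate and 1.62 to 4.85 CPM in control libraries, and epithelial markers to 0 CPM in itaconate and at most 1.12 CPM in control libraries. In a bulk sample, fewer cells with a transcript and less transcript per cell cannot be told apart.

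The 4 genes act in different pathways. PDLIM4, also named RIL, carries a PDZ and a LIM domain and ties α-actinin to the actin cytoskeleton. PTPN14 is a non-receptor tyrosine phosphatase with a FERM domain, and in human cells it binds the growth-promoting coactivator YAP and restrains it. PROCR, or EPCR, is the surface receptor that presents protein C to thrombin and thrombomodulin for activation, a step that limits clotting and signals through protease-activated receptors. Serpinb9b is one of the mouse copies of the clade B serpins, protease inhibitors that stay inside the cell, and its relative Serpinb9 blocks granzyme B.

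The start regions of the genes are shown because motifs in them can be read against all other promoters. Each RefSeq window (GRCm38.p6) runs from 250 bases before to 50 bases after one start of the gene. All 4 genes had 1 window. The start used is the outermost RefSeq start for Serpinb9b and lies 15 bases downstream of it for Pdlim4, 52 for Ptpn14 and 92 for Procr, and positions are counted from the start used. The letters searched on both strands were TGACNNNGC (the core of the antioxidant response element bound by NRF2), a longer form with A after these letters, TGANTCA (AP-1), CATTCC (TEAD, the DNA-binding partner of YAP) and TGATGNAA (an ATF4 element). The motifs were chosen with the genes known, and the AP-1 letters can lie inside the antioxidant response element. Capitals mark every match.
Pdlim4, chr11:54068968-54069267, minus strand: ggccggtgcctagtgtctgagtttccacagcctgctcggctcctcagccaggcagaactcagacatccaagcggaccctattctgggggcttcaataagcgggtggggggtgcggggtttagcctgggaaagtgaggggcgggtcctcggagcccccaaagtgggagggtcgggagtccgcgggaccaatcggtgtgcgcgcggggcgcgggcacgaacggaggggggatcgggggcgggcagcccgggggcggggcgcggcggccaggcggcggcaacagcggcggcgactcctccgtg
Ptpn14, chr1:189728018-189728317, plus strand: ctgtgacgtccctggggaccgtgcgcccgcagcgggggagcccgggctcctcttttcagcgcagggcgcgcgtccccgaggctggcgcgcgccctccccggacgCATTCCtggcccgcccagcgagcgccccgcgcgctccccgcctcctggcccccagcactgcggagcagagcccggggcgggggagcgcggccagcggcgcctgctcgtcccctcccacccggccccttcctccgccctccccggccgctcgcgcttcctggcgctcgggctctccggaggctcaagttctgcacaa
Procr, chr2:155750967-155751266, plus strand: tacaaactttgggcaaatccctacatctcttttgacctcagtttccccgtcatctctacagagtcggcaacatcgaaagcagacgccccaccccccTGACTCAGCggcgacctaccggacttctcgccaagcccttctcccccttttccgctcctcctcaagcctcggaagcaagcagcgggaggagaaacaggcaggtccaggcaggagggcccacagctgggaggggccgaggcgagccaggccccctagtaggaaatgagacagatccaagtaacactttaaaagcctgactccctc
Serpinb9b, chr13:33027164-33027463, plus strand: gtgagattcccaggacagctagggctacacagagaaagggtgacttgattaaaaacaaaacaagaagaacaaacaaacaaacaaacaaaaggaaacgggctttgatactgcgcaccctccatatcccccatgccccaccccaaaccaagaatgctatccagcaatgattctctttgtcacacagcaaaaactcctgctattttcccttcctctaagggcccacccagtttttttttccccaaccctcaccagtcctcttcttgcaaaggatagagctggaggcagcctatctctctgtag

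In the Procr window the core of the antioxidant response element was found once, beginning 154 bases before the start used and 62 bases before the outermost RefSeq start, and the AP-1 letters lie inside it. The Ptpn14 window held 1 TEAD match, which begins 146 bases before the start used and 94 bases before the outermost RefSeq start. The Pdlim4 and Serpinb9b windows held none of the 5 motifs, and no window held the longer antioxidant element or the ATF4 element. Over 32544 promoter windows of the same length, 12.4% held the core antioxidant element, 3.06% its longer form, 7.79% the AP-1 letters, 14.6% the TEAD letters and 3.91% the ATF4 element. Of 27 NRF2 target genes with a window, 10 held the core element. The windows also differed in base composition, with 71.7% G and C for Pdlim4, 78.3% for Ptpn14, 58.3% for Procr and 46.7% for Serpinb9b, against a median of 53% over all windows. A match is a run of letters and was not tested as a binding site.

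Pdlim4 is encoded on chromosome 11 from 54054928 to 54069014 on the minus strand (GRCm38, GENCODE M21), with up to 7 exons in its coding transcripts. Its levels were 29.9, 34.6 and 26.2 CPM in itaconate libraries, against 1.34, 0.487 and 0.933 CPM in control libraries. The raw counts were 159, 185 and 150 with itaconate and 8, 3 and 5 in control. The groups lay far apart, with the lowest itaconate library 19.6-fold above the highest control library. The mean was 30.2 ± 4.18 CPM in itaconate and 0.920 ± 0.426 CPM in control libraries (SD, n = 3 each), and the log2 fold change was 5.01 ± 0.36 (SE). From the summed counts the ratio of levels was 33.0, with an exact 95% interval of 20.1 to 58.1 that covers counting error only.

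Ptpn14 lies on chromosome 1 from 189728268 to 189876695 on the plus strand, with up to 19 exons. Its levels were 18.3, 17.0 and 17.3 CPM in itaconate libraries, against 0.167, 1.79 and 1.31 CPM in control libraries. In counts these were 97, 91 and 99 with itaconate and 1, 11 and 7 in control, so 1 control library fell below the floor of 3 counts. The itaconate libraries were close together and the control libraries were scattered near the limit of detection. The log2 fold change was 3.98 ± 0.44 (SE), and the ratio from summed counts was 16.1 (exact 95% interval 10.1 to 27.2, counting error only). Without control replicate 2 the log2 fold change was 4.58, and without control replicate 1 it was 3.47. Its exons overlap those of Gm26574 on the opposite strand, and the strand setting of the counting is not given in the sources used here, so reads of the pair cannot be told apart.

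Procr lies on chromosome 2 from 155751117 to 155755471 on the plus strand, with up to 4 exons. Its levels were 44.1, 42.0 and 43.2 CPM in itaconate libraries, against 4.02, 1.79 and 2.80 CPM in control libraries, from 234, 225 and 247 counts with itaconate and 24, 11 and 15 in control. The itaconate libraries were nearly equal, and the lowest of them lay 10.5-fold above the highest control library. The mean was 43.1 ± 1.01 CPM in itaconate and 2.87 ± 1.12 CPM in control libraries (SD, n = 3 each). The log2 fold change was 3.90 ± 0.27 (SE), and the ratio from summed counts was 15.1 (exact 95% interval 11.3 to 20.5, counting error only).

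Serpinb9b lies on chromosome 13 from 33027416 to 33041884 on the plus strand, with 7 exons. Its levels were 18.3, 19.2 and 28.0 CPM in itaconate libraries, against 1.17, 1.95 and 3.36 CPM in control libraries, from 97, 103 and 160 counts with itaconate and 7, 12 and 18 in control. Itaconate replicate 3 stood above the other itaconate libraries, and the groups did not overlap. The log2 fold change was 3.34 ± 0.36 (SE), or 3.12 without itaconate replicate 3. The ratio from summed counts was 10.4 (exact 95% interval 7.39 to 15.0), where the interval covers counting error only and leaves out the spread between libraries. Its exons overlap those of Gm36099 on the opposite strand, which had 0 counts in both groups. None of the 50-base stretches in the last 500 bases of the coding transcripts of Serpinb9b, Pdlim4, Ptpn14 or Procr occurs in a transcript of another gene, the other Serpinb9 copies included.

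**Figure D1:**
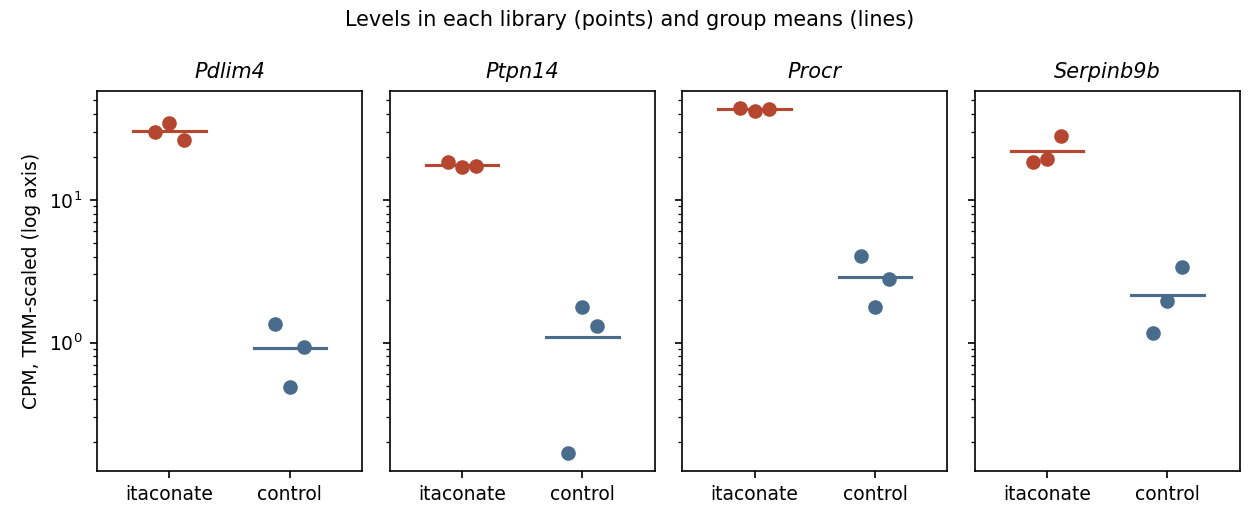
Levels of Pdlim4, Ptpn14, Procr and Serpinb9b in CPM on a log axis, with 3 itaconate libraries (red) left of 3 control libraries (blue) in each panel; points are libraries and lines are group means. Every itaconate library lies above every control library for each gene, and 1 control library of Ptpn14 falls to 0.167 CPM.

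The libraries hold reads from transcript ends, so the CPM of different genes were compared without division by transcript length. On that scale the mean level in itaconate libraries was highest for Procr, followed by Pdlim4, Serpinb9b and Ptpn14. Procr was the highest in each of the 3 itaconate libraries. Pdlim4 and Serpinb9b changed places in itaconate replicate 3, and Serpinb9b and Ptpn14 were equal at 18.3 CPM in itaconate replicate 1, so these neighbours did not differ beyond their spread. In control libraries no gene kept its place in all 3. Relative to all 10636 genes tested, the level of Procr stood at percentile 61.8 in itaconate and 6.61 in control libraries, and that of Pdlim4 at percentile 51.5 in itaconate and 0.367 in control libraries. Serpinb9b stood at percentile 42.5 in itaconate and 3.70 in control libraries, and Ptpn14 at 37.3 in itaconate and 0.555 in control libraries. The genes were thus of middling abundance with itaconate and among the scarcest tested in control libraries. Only Procr would have passed the low-count filter through its control libraries. The other 3 genes passed through the itaconate libraries, so a gene without a difference could not have entered at their control level.

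Spread between libraries of a group did not enter the choice of the genes. In itaconate libraries the coefficient of variation was 2.35% for Procr, 3.76% for Ptpn14, 13.8% for Pdlim4 and 24.5% for Serpinb9b, where counting error alone would give 6.52%, 10.2%, 7.79% and 9.13%. Procr and Ptpn14 thus varied by less than counting error and Serpinb9b by more, over only 3 libraries each. In control libraries the coefficients were 39.0% for Procr, 76.5% for Ptpn14, 46.3% for Pdlim4 and 51.3% for Serpinb9b, against 24.5%, 39.7%, 43.3% and 28.5% from counting error. Ranked among the 500 tested genes nearest in mean level, edgeR's dispersion stood at percentile 40.0 for Procr, 43.4 for Pdlim4, 50.2 for Ptpn14 and 65.6 for Serpinb9b. None of the 4 genes was at an extreme of its neighbours in level.

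In all 4 genes every itaconate library lay above every control library, as in 17.6% of all tested genes, while 35.6% of tested genes had groups that did not overlap in either direction. Since the contrast chose the genes, nothing is read from that count. Genes were ordered by log2 fold change if they were called higher, averaged at least 5 CPM over the libraries, had groups that did not overlap, and bore a gene name that is not a provisional one. Of 990 such genes, Pdlim4 was at place 1, Ptpn14 at 5, Procr at 6 and Serpinb9b at 10. Among all 1133 genes called higher, whatever their level, the places were 5, 14, 16 and 21. Between them stood genes of the NRF2 list: the iron exporter gene Slc40a1 (4.63 ± 0.26, SE), Adh7 (4.35 ± 0.22), the glutathione synthesis gene Gclm (4.04 ± 0.12), the cystine transporter gene Slc7a11 (3.58 ± 0.13) and the sulfiredoxin gene Srxn1 (3.40 ± 0.10). Gadd45g, a stress gene outside the NRF2 list, stood between Procr and Slc7a11 at 3.85 ± 0.40 and is not one of the 4, so the group is not a strict cut by size. Just after Serpinb9b came Cat, the gene of catalase (3.33 ± 0.10), and then Clec4n (3.13 ± 0.18), the gene of Dectin-2, a lectin receptor. The standard errors of Ptpn14, Procr and Gadd45g span one another, and those of Serpinb9b, Srxn1 and Cat do as well. The NRF2 list as a whole had 28 of 31 tested genes called higher and 0 lower by edgeR, DESeq2 and limma-voom alike, with 1 lower at an unadjusted p under 0.05. Among the 28, 3 genes (Nqo1, Mgst1 and Slc40a1) passed the low-count filter through the itaconate libraries alone. Of all tested genes edgeR called 10.7% higher and 11.2% lower. The list's median log2 fold change was 2.10, the same with Nqo1 at its bound.

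**Figure D2:**
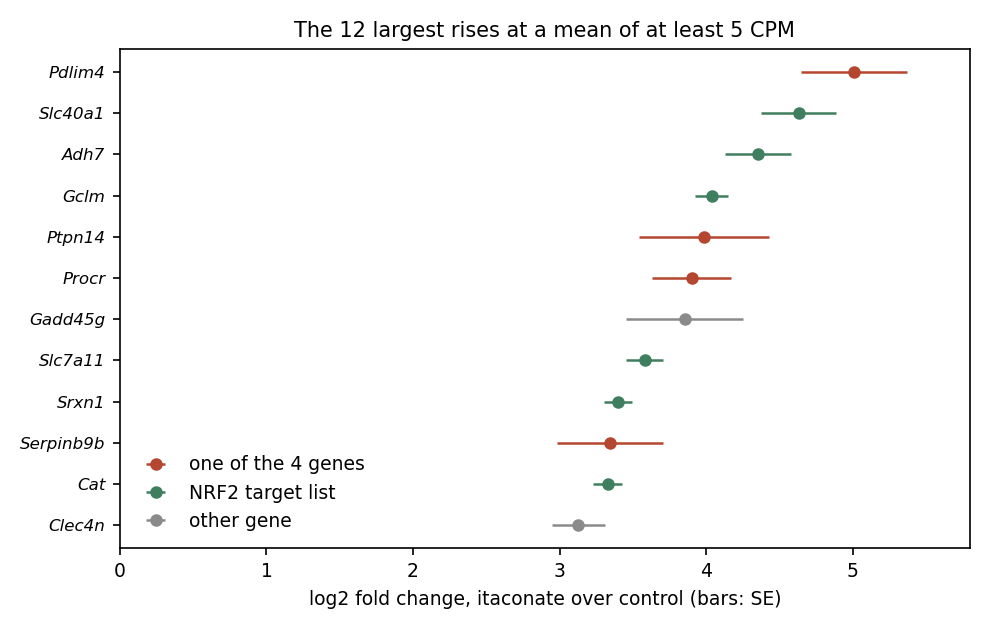
Log2 fold changes, itaconate over control, of the 12 largest rises at a mean of at least 5 CPM, with bars of 1 SE; red marks the 4 genes, green the NRF2 list and grey others. Pdlim4 leads at 5.01, Ptpn14 and Procr stand at 3.98 and 3.90, and Serpinb9b at 3.34 lies beside Srxn1 and Cat.

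Genes with the most similar course over the 6 libraries were found by the root mean square difference of log2 CPM, each gene centred on its own mean. For Pdlim4 the nearest were Slc40a1 (0.346), Gclm (0.360) and Procr (0.430). For Procr they were Gadd45g (0.192), Gclm (0.199) and Nqo1 (0.333). Nqo1, a quinone reductase gene of the NRF2 list, had 0 counts in control and was at least 29.2-fold higher with itaconate, against 3 counts over the control group. For Ptpn14 they were Adh7 (0.378), Slc7a11 (0.546) and Cat (0.559). For Serpinb9b they were Clec4n (0.328), Cat (0.383) and Dlgap1 (0.428). Dlgap1 averaged 2.31 ± 0.384 CPM in itaconate and 0.116 ± 0.101 CPM in control libraries (SD, n = 3 each). The prior count of 2 in log2 CPM shrinks rises from few counts, such as those of Nqo1 and of Dlgap1, which had 2 control counts. Nqo1 lay near Procr although the ratio from summed counts was only 15.1 for Procr. Apart from such scarce genes, with 2 groups far apart, the root mean square difference mostly finds genes with a rise of like size. Ranked instead by Pearson correlation over the same 6 libraries, the 3 nearest genes shared 1 with these for Pdlim4 (Procr) and 0 for the other 3 genes.

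Most tested relatives of Pdlim4 were not called, and those called went in both directions. The PDZ and LIM family and the α-actinin and focal adhesion genes around it numbered 44, of which 29 besides Pdlim4 were tested. Of these, 4 were called higher and 7 lower (edgeR adjusted p under 0.05), where 10.7% of all tested genes were called higher and 11.2% lower. The number higher is thus near the background. Their median log2 fold change was -0.03, against -0.01 for all genes tested. The family member Pdlim2, whose protein restrains NF-kB in mouse macrophages and T cells, averaged 65.5 ± 8.56 CPM in itaconate and 98.7 ± 13.6 CPM in control libraries (SD, n = 3 each) and fell by 0.59 ± 0.13 on the log2 scale (SE, adjusted p = 0.000463). Pdlim5 (-0.30 ± 0.21) and Pdlim7 (0.50 ± 0.34) were not called. Pdlim1 had 0 counts in all libraries, and Pdlim3 had 0 counts in itaconate and 2 in control. Ldb3 had 5, 10 and 13 counts in itaconate libraries, against 0, 0 and 3 in control, and was below the filter and not tested.

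The α-actinin genes Actn1 (-0.05 ± 0.09) and Actn4 (0.06 ± 0.10), whose products bind PDLIM4, were not called either. Called higher were the tropomyosin genes Tpm4 (0.64 ± 0.10) and Tpm1 (0.46 ± 0.10), which encode coats of the actin filament, the actin-associated Synpo (1.18 ± 0.22) and, chosen after its values were seen, Lasp1 (0.31 ± 0.10). Called lower were the actin elongation factor gene Vasp (-0.47 ± 0.08), the LIM adaptor gene Trip6 (-0.56 ± 0.11), the actin-binding gene Tagln2 (-0.42 ± 0.09) and Pdlim2. Csrp1, Fhl3 and Vcl, chosen after their values were seen, completed the 7. Tpm1 was likewise chosen after its values were seen. Without itaconate replicate 2 only 4 of these genes remained below the threshold on the lower side, since Csrp1, Fhl3 and Vcl were not called there (adjusted p = 0.0726, 0.0584 and 0.283), and Lasp1 lost its call in 5 of 13 alternatives (adjusted p 0.0573 to 0.180 in those). Over all 13 alternatives Vcl lost its call in 8, DESeq2 and limma-voom among them, Csrp1 in 4 and Fhl3 in 3.

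Of the FERM-domain phosphatases related to PTPN14, Ptpn4 averaged 22.8 ± 4.34 CPM in itaconate and 26.6 ± 1.80 CPM in control libraries (log2 fold change -0.22 ± 0.21), and Ptpn21 averaged 10.8 ± 1.49 CPM in itaconate and 11.2 ± 2.29 CPM in control libraries (-0.04 ± 0.31). Neither was called. Ptpn3 had 0 counts in itaconate and 2 in control, and Ptpn13 had 0, 0 and 9 counts in itaconate libraries against 1, 0 and 0 in control. In the list of FERM phosphatases and the Hippo pathway, which keeps YAP and its sister TAZ out of the nucleus, 1 of 19 other tested genes was called higher and 1 lower, against 10.7% higher and 11.2% lower of all tested genes, with a median of -0.07. They were Amotl1 (0.39 ± 0.11), whose product binds YAP, and Vgll4 (-0.62 ± 0.23), whose product competes with YAP for TEAD proteins. The libraries of both overlapped between the groups. Amotl1 lost its call without itaconate replicate 1 or control replicate 1 (adjusted p = 0.174 and 0.0627), and Vgll4 lost it in 8 of 13 alternatives (adjusted p 0.0506 to 0.365 in those).

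YAP itself was not detected. Yap1 had 0 counts in every library, as did the TEAD gene Tead3, and Wwtr1, which encodes TAZ, had 1, 3 and 0 counts in itaconate libraries against 0, 7 and 0 in control. Tead2 was the only TEAD gene tested (-0.75 ± 0.70, not called), while Tead1 had 0 counts in itaconate and 1 in control and Tead4 had 2 in itaconate and 0 in control. A count of 0 allows up to 3 counts, between 0.487 and 0.565 CPM per library. Among 22 target genes of YAP and TAZ, a list that contains Ptpn14 itself and stems from human cells, 7 had 0 counts in all libraries, among them the classic targets Cyr61 and Ankrd1, and Ctgf had 1 count in 1 itaconate library. Of the 6 others tested, 1 was called higher and 0 lower, with a median of -0.10, where 10.7% of all tested genes were called higher and 11.2% lower, so the count is near the background. That gene was Gadd45a, a stress and growth arrest gene, at 16.4 ± 0.912 CPM in itaconate and 5.15 ± 1.10 CPM in control libraries (SD, n = 3 each; log2 fold change 1.66 ± 0.32, adjusted p = 8.16e-05). Of the same 6, 1 was lower at an unadjusted p under 0.05, and DESeq2 and limma-voom called 0 lower.

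PROCR's partners in the protein C system were mostly scarce. The ligand gene Proc had 0 counts in every library. The thrombomodulin gene Thbd had 4, 14 and 20 counts in itaconate libraries against 18, 1 and 19 in control, and its level was 2.29 ± 1.40 CPM in itaconate and 2.24 ± 1.82 CPM in control libraries (SD, n = 3 each; not called). Of the genes for protease-activated receptors, through which the protein C and PROCR complex signals, F2rl1 and F2rl2 had 0 counts, F2r had 4 counts in itaconate and 0 in control, and F2rl3 had 0 in itaconate and 1 in control. Pros1, which encodes protein S, the cofactor of activated protein C, averaged 30.6 ± 0.952 CPM in itaconate and 50.8 ± 6.89 CPM in control libraries and fell by 0.73 ± 0.17 on the log2 scale (adjusted p = 0.000799, chosen after its values were seen). The tissue factor gene F3 and the plasminogen activator gene Plat had 0 counts.

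In the whole list of protein C, clotting and fibrinolysis genes, 6 of 20 other tested genes were called higher and 2 lower, with a median of 0.08. Of all tested genes 10.7% were called higher and 11.2% lower, so the number lower is near the background. The transglutaminase gene Tgm2 had 26.4 ± 2.81 CPM in itaconate and 6.18 ± 0.167 CPM in control libraries (SD, n = 3 each; log2 fold change 2.09 ± 0.27, adjusted p = 1.61e-08). Lrp8, which encodes a lipoprotein receptor that can bind activated protein C, rose by 1.64 ± 0.33. The integrin chain gene Itgb2 (0.66 ± 0.09) and the growth arrest ligand gene Gas6 (0.62 ± 0.09) rose too. Plaur (0.73 ± 0.21), the urokinase receptor gene, and Anxa5 (0.25 ± 0.08), both chosen after their values were seen, completed the 6, and each lost its call in 2 of 13 alternatives: Plaur without itaconate replicate 1 or control replicate 1 (adjusted p = 0.160 and 0.0569), and Anxa5 without itaconate replicate 2 or control replicate 3 (adjusted p = 0.0798 and 0.0761). The second gene that fell was Itgam (-0.54 ± 0.12), whose product pairs with that of Itgb2 to form Mac-1, an integrin that binds clotting factors and complement.

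**Figure D3:**
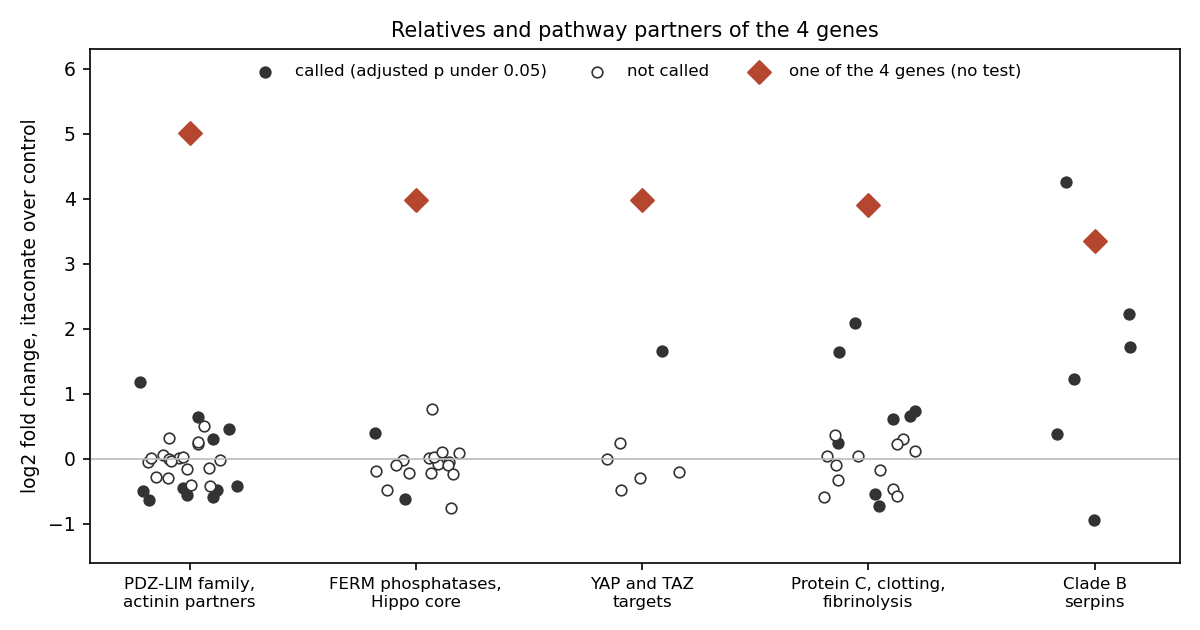
Log2 fold changes, itaconate over control, of all tested genes in 5 lists, jittered sideways for view; filled points were called at an adjusted p under 0.05, open points were not, and red diamonds are the 4 genes, shown without a test (Ptpn14 stands in 2 lists). Each diamond lies above all other genes of its list except in the clade B serpins, where Serpinb1b at 4.27 (3.68 to 6.09 with 1 library left out) lies above Serpinb9b.

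Most tested relatives of Serpinb9b were called higher. Of 27 clade B serpin genes, 16 had 0 counts in all libraries and 7 were tested. Of the 6 besides Serpinb9b, 5 were called higher and 1 lower, with a median of 1.47. Of all tested genes 10.7% were called higher and 11.2% lower. Serpinb1b passed the low-count filter through the itaconate libraries alone. Serpinb9, the granzyme B inhibitor gene, had 126, 131 and 140 counts in itaconate libraries, against 34, 26 and 30 in control. Its level was 24.2 ± 0.434 CPM in itaconate and 5.17 ± 0.822 CPM in control libraries (SD, n = 3 each), and it rose by 2.23 ± 0.29 on the log2 scale (adjusted p = 1.71e-08). Serpinb6b had 26.7 ± 4.64 CPM in itaconate and 11.4 ± 2.96 CPM in control libraries and rose by 1.23 ± 0.25 (adjusted p = 0.000137).

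Serpinb1b and Serpinb1c are mouse relatives of the neutrophil elastase inhibitor gene. Serpinb1b had 38, 45 and 33 counts in itaconate libraries, against 1, 0 and 5 in control, and rose by 4.27 ± 0.76 (adjusted p = 1.7e-05) from few reads. Without control replicate 2 its log2 fold change was 3.68, and without control replicate 3 it was 6.09. Serpinb1c rose by 1.71 ± 0.53 (adjusted p = 0.0138), a call lost without itaconate replicate 1 (0.0666) or replicate 2 (0.0928). Serpinb6a, the most abundant clade B serpin here, rose by only 0.39 ± 0.10, with 238.9 ± 27.6 CPM in itaconate and 182.8 ± 11.4 CPM in control libraries (SD, n = 3 each). Serpinb8 had 28.1 ± 5.36 CPM in itaconate and 53.8 ± 6.23 CPM in control libraries and fell by 0.93 ± 0.17 (adjusted p = 3.52e-05). The copies Serpinb9c, Serpinb9d, Serpinb9e, Serpinb9f and Serpinb9g had 0 counts in every library. In the last 500 bases of their coding transcripts, Serpinb9, Serpinb6b, Serpinb1b and Serpinb8 shared 0 stretches of 50 bases with other genes, Serpinb1c shared 0.222% with Serpinb1a, and Serpinb6a shared 2.06% with Serpinb6b, Serpinb6c and a predicted gene.

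The serpins that rose are neighbours. Serpinb9b and the 5 called relatives all lie in the clade B cluster on chromosome 13, whereas Serpinb8, which fell, lies on chromosome 1. From Serpinb1c to Serpinb1b, a stretch of 213.2 kb (RefSeq, GRCm38.p6), stand Serpinb1c, Serpinb6b, Serpinb9, Serpinb9b and Serpinb1b in a row. All 4 neighbours of Serpinb9b in this stretch were called higher, where 10.7% of all tested genes were called higher. Of them, Serpinb1b passed the low-count filter through the itaconate libraries alone, so it could not have entered at its control level. Serpinb1c lost its call without itaconate replicate 1 or 2. Serpinb6a, 890.5 kb from the start of Serpinb9b, had the smallest rise. Of the 16 clade B serpin genes annotated in the cluster, 15 were in the table, 6 were tested and 8 had 0 counts in every library.

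**Figure D4:**
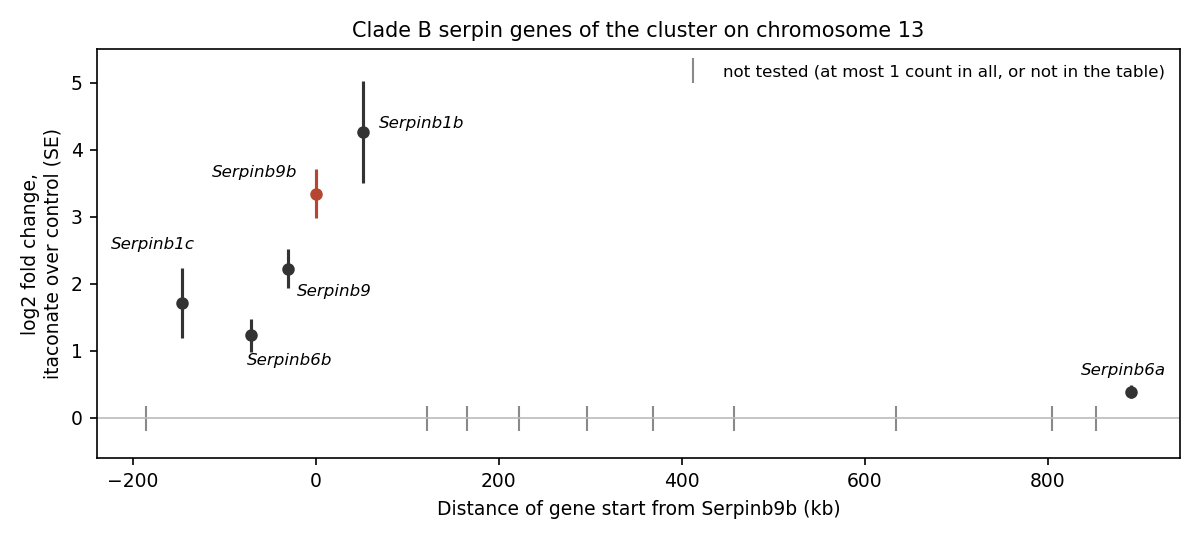
Log2 fold change, itaconate over control, with bars of 1 SE, of clade B serpin genes on chromosome 13 against the distance of the gene start from that of Serpinb9b in kb; grey ticks at 0 mark genes that were not tested. The 5 genes between Serpinb1c and Serpinb1b stand between 1.23 and 4.27, and Serpinb6a at 890.5 kb stands at 0.39.

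The granzyme, neutrophil and mast cell protease genes listed as targets of serpins were not expressed at a level that could be tested. Of 21 listed genes, these proteases and perforin, 17 had 0 counts in all libraries and 0 were tested. Gzmb and Gzma were among those at 0, and the list summed to 0.188 to 0.747 CPM in itaconate libraries and 1.62 to 2.43 CPM in control libraries. Of 17 serpins from other clades, 10 had 0 counts and 2 were tested, with 1 called lower and 0 higher. Of all tested genes 11.2% were called lower and 10.7% higher. In this list 0 were higher at an unadjusted p under 0.05 or by DESeq2 or limma-voom. Both tested genes passed the low-count filter through the control libraries alone. The gene called lower was Serpinf1, which encodes the secreted factor PEDF. It had 0, 0 and 0 counts in itaconate libraries against 16, 12 and 10 in control, at least 11.9-fold lower against 3 counts over the itaconate group.

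The neighbours of the other 3 genes were taken by position, 3 protein-coding genes on each side, after values had been seen. Among all tested genes 10.7% were called higher and 11.2% lower. Beside Pdlim4, the organic cation and carnitine transporter genes Slc22a4 and Slc22a5 were called higher. Both passed the low-count filter through the itaconate libraries alone, so neither could have entered at its control level. Slc22a4 had 5.63 ± 1.02 CPM in itaconate and 1.06 ± 0.654 CPM in control libraries (SD, n = 3 each; log2 fold change 2.36 ± 0.65, adjusted p = 0.00499). Slc22a5 had 3.04 ± 0.849 CPM in itaconate and 0.338 ± 0.158 CPM in control libraries (3.07 ± 0.89, adjusted p = 0.00882), a call lost when any 1 of 4 libraries was left out (itaconate replicate 2 or 3, control replicate 2 or 3, adjusted p 0.0517 to 0.0688). Their neighbour Slc22a21 was not called (0.02 ± 0.55), and on the other side of Pdlim4 the genes Csf2 and Il3 had 0 counts and P4ha2 had 1.

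Beside Ptpn14 the genes went different ways, where 21.9% of all tested genes were called in either direction. The kinetochore gene Cenpf fell by 2.04 ± 0.14 (adjusted p = 8.09e-16), Rps6kc1 rose by 0.99 ± 0.24 (adjusted p = 0.00187), Smyd2 (0.18 ± 0.15) and Kctd3 (0.27 ± 0.31) were not called, and Prox1 and Kcnk2 had 0 counts. Beside Procr, Edem2, which serves the breakdown of misfolded proteins in the endoplasmic reticulum, rose by 0.63 ± 0.14 (adjusted p = 0.000731). Trpc4ap (0.16 ± 0.14), Eif6 (-0.13 ± 0.12) and BC029722 (-0.15 ± 0.75) were not called, and Myh7b and Mmp24 were too scarce to test.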

How the data were processed

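The authors deposited raw counts of reads per gene symbol, not normalized, for 6 libraries made with the Lexogen QuantSeq FWD kit from TRIzol RNA, per the labels' protocols. STAR 2.7.5a and HTSeq 0.6.1, with edgeR and the build mm10, are listed per the submitters' processing notes. For the annotation, the strand setting and multiply mapped reads, no source used here gives one. The header has 2 empty cells before 6 names, each of which matches 1 sample title, and the names were read as those of the 6 count columns. Of 35976 symbols, filterByExpr (minimum count 10, minimum total 15) kept 10636. Genes were tested by quasi-likelihood in edgeR 4.0.16 under R 4.3.3 (TMM, robust, group as the only term, two-sided), with Benjamini-Hochberg adjustment over all tested genes and calls at 0.05. Every adjusted p in the text comes from it unless another tool is named. It was tested on simulated data. SE is the absolute log2 fold change over the square root of F. Log2 CPM used a prior count of 2. The floor is 3 counts per library, 0.487 to 0.565 CPM, and covers counting error only, since no molecular identifiers are stated.

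The members and all lists (8 gene lists with 225 genes, and 6 marker lists) were chosen with earlier results of these data known. Named genes were the 4 members, their direct families, up to 6 called genes per list by p, the 3 nearest in profile and those adjacent in the order of rises. Other genes named, such as partners that were not called or had no counts, were chosen after their values were seen. Promoters come from RefSeq (GRCm38.p6), and gene positions from GENCODE M21 and RefSeq on GRCm38, the assembly of mm10. Alternatives were library totals, DESeq2 size factors, no and stricter filters, DESeq2 1.42.0, limma-voom 3.58.1, a replicate block and leaving out each library.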

Additional observations from a re-analysis of the deposited data

How the results depend on the processing

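Under 13 alternatives the log2 fold changes of the 4 genes kept their sign. Since the genes were chosen for large rises in these same libraries, nothing is read from the kept sign. Pdlim4 ran from 4.70 to 5.40 and Ptpn14 from 3.47 to 4.58, against SEs of 0.36 and 0.44 in the main fit. Procr ran from 3.64 to 4.24 and Serpinb9b from 3.05 to 3.78, against SEs of 0.27 and 0.36. These ends were all reached by leaving out 1 library, and each gene moved by more than its SE in some alternative. Genes called higher numbered 882 to 1147 and lower 915 to 1429. Of 46 other named genes that were called, 32 were tested and called in every alternative, 11 lost their call in at least 1, and Nqo1, Serpinf1 and Slc22a4 kept it in the 12 where they were tested, being below the minimum of 30 counts. The clade B serpins kept 4 to 5 higher and 1 lower. With 1 library left out, 4 to 6 genes of the PDZ-LIM list were lower, 0 to 2 of the Hippo list higher and 0 to 1 lower, and 1 to 2 YAP and TAZ targets higher and 0 to 1 lower. With library totals, 3 Hippo genes, 1 YAP and TAZ target and 1 NRF2 target were lower. Hippo genes called lower numbered 0 without a filter, with DESeq2, with limma-voom and with the replicate block. With that minimum, 0 other serpins were called lower, since Serpinf1 was not tested. Other causes were not tested. The replicate numbers did not pair the libraries (correlations of deviations -0.01, 0.02 and 0.04), and with the replicate block 1087 genes were higher and 1160 lower. The extended antioxidant element was in 3.06% of windows, against 12.4% for its core. Depth limits Ptpn14 and Pdlim4 in control libraries most, with 1 to 11 and 3 to 8 counts.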
